A study of Mus musculus with 4 samples.

Results

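Acyl-CoA synthetases of the Acsl, Acsm and Acss families attach coenzyme A to a fatty acid, the step that commits it to oxidation, to esterification into triglyceride or phospholipid, or to conjugation. The group was chosen by name: the rows of the count table whose Ensembl identifiers carry the symbols Acsl1, Acsl3, Acsl4, Acsl5, Acsm1, Acsm3, Acsm5, Acss1, Acss2 and Acss3. All 10 were found among the 46603 genes of the table, and 9 of them passed the filter on low counts. The livers came from HuR flox/flox mice labelled male, on a C57BL/6 J background, and all of them received WDSW, a Western diet with sugar water, over 4 weeks. This diet held 42% of its kcal as fat with 0.1% cholesterol, and the drinking solution held 23.1 g/L fructose and 18.9 g/L glucose. The 2 control mice had received an AAV8 vector carrying GFP behind the thyroxine-binding globulin promoter (AAV8-TBGP-GFP), and the 2 HuR hKO mice the same kind of vector carrying Cre recombinase. The floxed allele, the viral injection and the diet were therefore shared by both groups, and the promoter restricts Cre to hepatocytes. The age of the mice was not given in the labels.

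The families differ in the fatty acids they take. The Acsl enzymes activate long-chain fatty acids at the endoplasmic reticulum, at mitochondria and on lipid droplets. The Acsm enzymes sit in the mitochondrial matrix and activate medium-chain fatty acids and aromatic acids such as benzoate, which the liver then joins to glycine. The Acss enzymes activate short acids: Acss2 makes acetyl-CoA from acetate in the cytosol and nucleus, Acss1 does so in mitochondria, and Acss3 is a mitochondrial enzyme that prefers propionate. In the liver, Acsl1 is known as the main long-chain synthetase, and Acss2 is a known target of the sterol regulatory element binding proteins.

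The promoters of these genes were read from the RefSeq table (GRCm38.p6), each window running from 250 bases before to 50 bases after the start site. The table held 10 windows for 9 of the 10 genes. Those printed here show the contrast in base composition within the group: both Acsl1 windows, because this gene has 2 listed starts, the Acsm1 and Acsm5 windows from the Acsm cluster, and the Acss2 window. Capitals mark every match, on either strand, to any of 6 short motifs: the sterol regulatory element TCACCCCAC, the E-box CACGTG, the CCAAT box CCAAT, the GC box GGGCGG, the TATA box TATAAA and the nuclear receptor half-site AGGTCA. Matches to different motifs that touch or overlap run together as 1 stretch of capitals.
Acsl1, upstream start, chr8:46470787-46471086, plus strand: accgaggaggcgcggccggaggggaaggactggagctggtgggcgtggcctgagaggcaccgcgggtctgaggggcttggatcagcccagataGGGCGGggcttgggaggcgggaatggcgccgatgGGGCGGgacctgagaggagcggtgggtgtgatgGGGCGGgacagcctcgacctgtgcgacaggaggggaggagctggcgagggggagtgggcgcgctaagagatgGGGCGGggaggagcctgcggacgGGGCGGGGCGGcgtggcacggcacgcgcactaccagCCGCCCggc
Acsl1, downstream start, chr8:46490716-46491015, plus strand: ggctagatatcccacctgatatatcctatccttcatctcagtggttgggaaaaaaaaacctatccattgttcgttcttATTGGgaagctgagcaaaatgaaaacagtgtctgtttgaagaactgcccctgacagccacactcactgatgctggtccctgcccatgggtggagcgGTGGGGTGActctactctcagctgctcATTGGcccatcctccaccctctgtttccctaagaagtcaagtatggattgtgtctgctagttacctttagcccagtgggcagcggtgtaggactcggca
Acsm1, chr7:119617562-119617861, plus strand: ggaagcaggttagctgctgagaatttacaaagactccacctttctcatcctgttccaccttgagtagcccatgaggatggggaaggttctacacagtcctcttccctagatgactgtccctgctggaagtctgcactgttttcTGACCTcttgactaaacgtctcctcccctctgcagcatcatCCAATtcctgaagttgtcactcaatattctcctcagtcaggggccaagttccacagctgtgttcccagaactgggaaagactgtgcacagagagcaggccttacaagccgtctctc
Acsm5, chr7:119526015-119526314, plus strand: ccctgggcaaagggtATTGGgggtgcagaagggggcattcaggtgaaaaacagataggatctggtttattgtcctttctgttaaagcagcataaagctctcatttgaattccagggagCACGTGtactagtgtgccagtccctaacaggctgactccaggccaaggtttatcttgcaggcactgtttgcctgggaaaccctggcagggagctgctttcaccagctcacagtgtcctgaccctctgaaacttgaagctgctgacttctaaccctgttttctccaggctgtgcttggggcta
Acss2, chr2:155517793-155518092, plus strand: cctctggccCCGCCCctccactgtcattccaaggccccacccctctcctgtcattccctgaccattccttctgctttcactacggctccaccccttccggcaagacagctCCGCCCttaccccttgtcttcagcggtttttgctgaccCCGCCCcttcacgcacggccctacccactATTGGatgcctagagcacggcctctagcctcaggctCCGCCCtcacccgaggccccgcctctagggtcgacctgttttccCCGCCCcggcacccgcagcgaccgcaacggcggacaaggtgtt

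The windows fell into a GC-rich kind and a kind near the median of all promoters, 52.7% G and C. Windows of the second kind held 50% to 53% G and C. The upstream Acsl1 window held 30 CpG dinucleotides and 74.0% G and C, and the windows of Acsl3, Acsl4, Acss1 and Acss2 held 33, 33, 23 and 20 CpG. The Acsm1, Acsm3 and Acsm5 windows held 2, 7 and 1 CpG, the downstream Acsl1 window 4 and the Acsl5 window 9. Over all 32851 promoters of the same length the median was 7 CpG, with quartiles of 3 and 20. A GC box lay in 5 of the 10 windows and in 35.7% of all promoters, and those 5 were the CpG-rich ones. A CCAAT box lay in 7 of the 10 windows, against 37.4% of all promoters. The sterol regulatory element was found once, in the downstream Acsl1 window, and in 0.551% of all promoters. The E-box was found once, in the Acsm5 window, against 7.15% of all promoters, and the half-site once, in the Acsm1 window, against 16.3%. None of the 10 windows held the TATA letters, which 13.6% of all promoters hold. A match is only a run of letters, and the counts per gene did not separate the 2 Acsl1 starts. The Acsm1, Acsm5 and Acsl5 windows lay inside the GENCODE spans of these genes, so starts further upstream were not read.

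The libraries held 13032095 to 19715577 counts, the deepest being HuR hKO mouse 4. The targeted gene was checked first. Elavl1, which encodes HuR, had a level, in counts per 1000000 counts of the scaled library (CPM), of 28.4 and 25.9 CPM in the control livers and 37.7 and 34.4 CPM in the livers labelled HuR hKO. Its level was thus not lower in the labelled knockouts (log2 fold change 0.41, SE 0.14, edgeR quasi-likelihood adjusted p = 0.545), so every direction given here is that of the libraries labelled HuR hKO against the control libraries. The counts covered the whole gene, and the labels did not say which exons are floxed. The study also examined HuR by other methods, whose data were not analysed here. Hepatocyte markers were abundant in all 4 libraries, at a summed 66397 to 75429 CPM, and the 4 kidney tubule markers summed to at most 0.226 CPM.

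Between the groups, none of the 9 tested synthetases passed an adjusted p of 0.05, and none passed an unadjusted p of 0.05. Across all 13001 genes tested, 0.0231% passed the first rule and 7.43% the second. None of the 9 passed the rule the study used for its volcano plot, a fold change of at least 1.8 with an unadjusted p under 0.05, which 2.12% of all genes passed here. Adjusted p-values of the 9 ran from 0.686 to 0.994 (edgeR), and the lowest under any of 13 alternative settings was 0.439. Fitted values were above 0 for 5 genes and below 0 for 4, with a median log2 fold change of 0.01 beside 0.00 for all genes. Without library scaling all 9 fitted values were above 0, with a median of 0.30, but the median of all genes then stood at 0.31. These are bulk livers, in which fewer cells of a type and less RNA per cell cannot be told apart.

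The intervals bounded how large a difference could have been missed. For all 9 tested synthetases the 95% interval of the fold change lay inside 1.8-fold in both directions, which was so for 67.6% of all genes tested. The lowest bound was 0.691 times the control level, for Acsl1, and the highest 1.79 times, for Acss3. In 7 of the 9, the larger of the 2 gaps between mice of 1 group was wider than the gap between the group means. How often this holds over all genes was not counted, so it is not read as a trait of the synthetases. The exceptions among the 9 were Acsm5 and Acss3, whose 2 labelled HuR hKO livers both lay above both control livers. Groups that do not overlap in this direction were seen for 19.3% of all genes. In the opposite direction they were seen for 18.8% of all genes and for 0 of the 9.

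**Figure D1:**
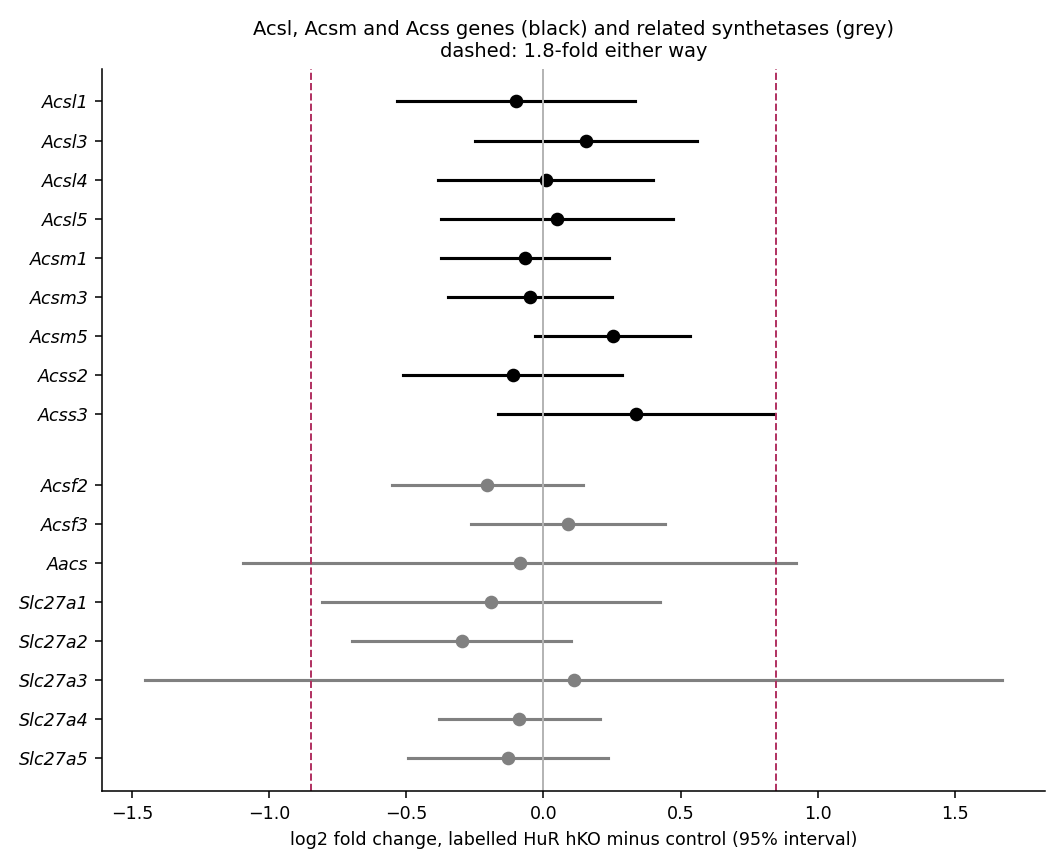
Log2 fold change of each tested synthetase (horizontal axis, libraries labelled HuR hKO minus control), with the point at the fitted value and the line spanning its 95% interval from edgeR; Acsl, Acsm and Acss genes are black, related synthetases grey, and dashed lines mark 1.8-fold either way. Every black line crosses 0 and stays inside the dashed lines, the nearest being Acss3 at an upper bound of 1.79-fold.

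Among the long-chain enzymes, Acsl1 had 1076 and 1341 CPM in the control livers and 989 and 1265 CPM in the labelled HuR hKO livers. The groups overlapped, and control mouse 2 and HuR hKO mouse 4 were the high ones in each pair. The fitted log2 fold change was -0.10 (SE 0.19, adjusted p = 0.932, edgeR), a 95% interval of 0.691 to 1.26 in fold. Acsl5, a synthetase of mitochondria and the endoplasmic reticulum, had 237.8 and 344 CPM in the controls and 304 and 298 CPM in the labelled knockouts. Both labelled knockouts lay between the 2 controls, so the spread of Acsl5 came from the control pair, whose ratio was 1.45 (log2 fold change 0.05, SE 0.18). Its 95% interval in fold ran from 0.771 to 1.39.

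Acsl3, the synthetase found on growing lipid droplets, was at 18.7 and 22.6 CPM in the controls and 19.95 and 25.9 CPM in the labelled HuR hKO livers. The low and the high mouse of each group interleaved, and the interval was 0.840 to 1.475 in fold around a log2 fold change of 0.15 (SE 0.18). Acsl4, which prefers arachidonic acid and supplies the polyunsaturated phospholipids on which ferroptosis depends, had 49.1 and 40.5 CPM in the controls. The labelled knockouts bracketed these, at 51.0 and 39.2 CPM. Its log2 fold change was 0.01 (SE 0.17), the closest to 0 of the 9, with an interval of 0.767 to 1.32 in fold. Acsl4 was low in the 2 libraries where Acsl1 and Acsl3 were high, control mouse 2 and HuR hKO mouse 4.

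The medium-chain enzymes varied least between mice. Acsm1 stood at 297 and 306 CPM in the controls and 275 and 301 CPM in the labelled knockouts, a ratio of 1.11 between the highest and the lowest liver. Acsm3 stood at 125 and 112 CPM against 111 and 118 CPM, a ratio of 1.125. Both overlapped between groups, and their intervals in fold were 0.771 to 1.18 for Acsm1 and 0.786 to 1.19 for Acsm3. The Acsl genes and Acss2 spanned ratios of 1.30 to 1.45 over the same 4 livers.

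Acsm5 had the smallest p of the group. Its levels were 132 and 128 CPM in the control livers and 155.1 and 154.6 CPM in the labelled HuR hKO livers. Mice within a group differed by ratios of 1.04 and 1.003, against a ratio of 1.19 between the group means. The log2 fold change was 0.25 (SE 0.12), with a 95% interval of 0.978 to 1.45 in fold, and the adjusted p was 0.686 in edgeR and between 0.525 and 1.00 under the alternatives. The ratio of Acsm5 to its neighbour Acsm1, in which library scaling cancels, gave log2 values of -1.17 and -1.26 in the controls and -0.83 and -0.96 in the labelled knockouts. Against Acsm3 the same log2 ratio was 0.08 and 0.19 in the controls and 0.48 and 0.39 in the labelled knockouts. Both ratios were higher in each labelled knockout than in each control. These pairs were picked after the values were seen and were not tested. The genes whose pattern over the 4 libraries was closest to that of Acsm5, by Euclidean distance in centred log2 CPM among 8201 genes with a mean log2 CPM of at least 3, were Nat8f1 (distance 0.0185), Wdr55 (0.0255) and Clec4g (0.0257).

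**Figure D2:**
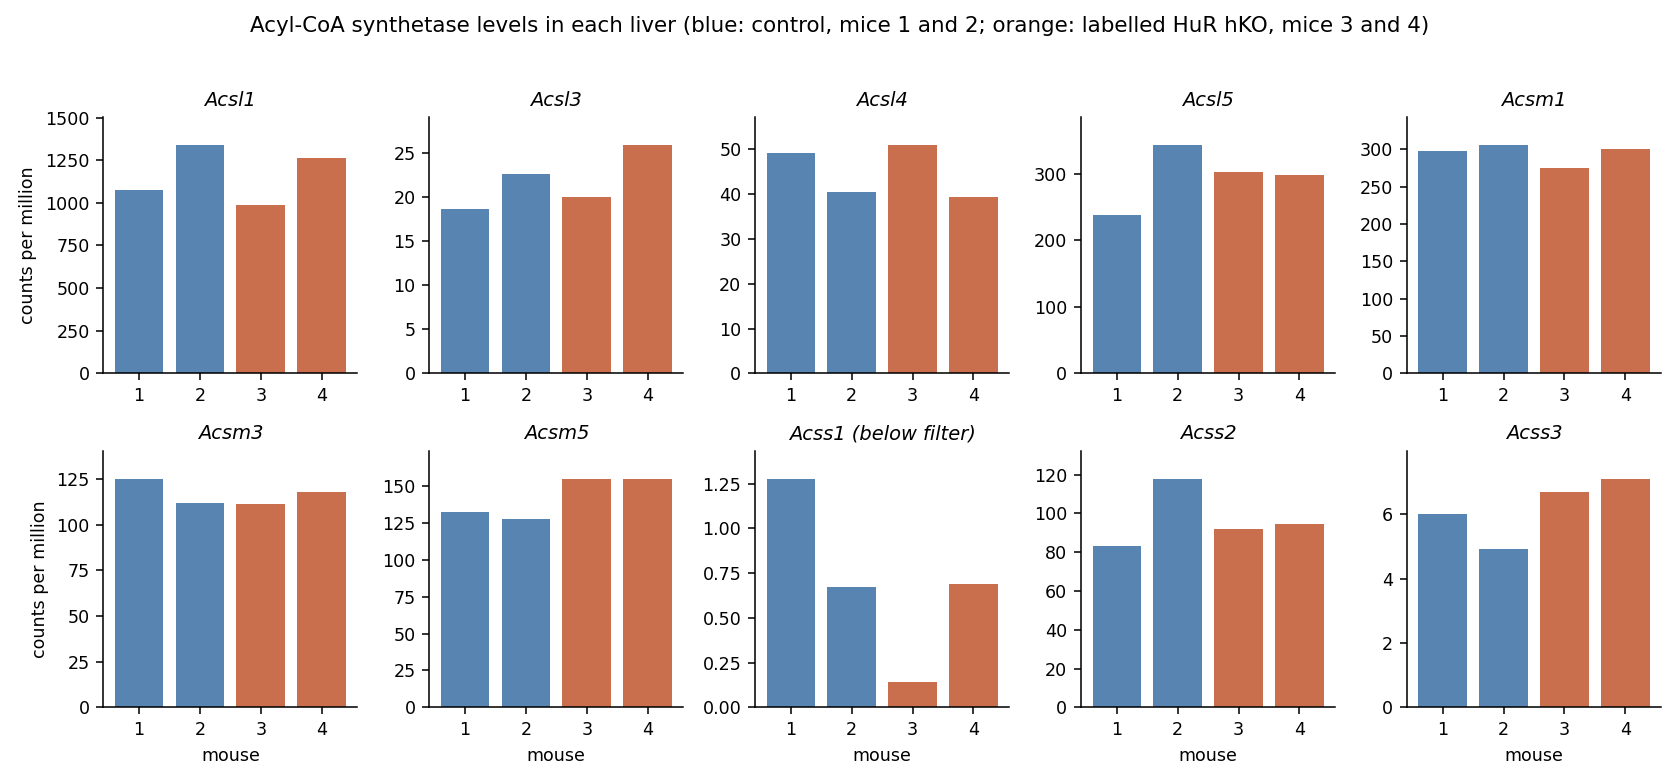
CPM of each of the 10 synthetases (vertical axis, from 0, a scale of its own in each panel) in each of the 4 livers (horizontal axis, mouse number); blue bars are control, orange bars labelled HuR hKO. Acsm5 and Acss3 are the tested genes whose 2 orange bars, at 155.1 and 154.6 and at 6.70 and 7.11, stand above both blue bars.

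The short-chain enzymes ranged widely in level. Acss2 had 83.2 and 117.9 CPM in the controls and 91.9 and 94.3 CPM in the labelled HuR hKO livers. As with Acsl5, both labelled knockouts lay between the controls, and the log2 fold change was -0.11 (SE 0.17), an interval of 0.702 to 1.22 in fold. Acss3 had 6.02 and 4.93 CPM in the controls and 6.70 and 7.11 CPM in the labelled knockouts, from 66 to 134 counts a library. Its log2 fold change of 0.34 (SE 0.22, adjusted p = 0.768, edgeR) was the largest of the 9 and had the widest interval, 0.891 to 1.79 in fold. Without library scaling its unadjusted p was under 0.05, at a log2 fold change of 0.65, when all genes shifted by 0.31. Acss1 held 17 and 9 counts in the controls and 2 and 13 in the labelled knockouts, fell below the filter and was not tested. Fit without HuR hKO mouse 4, its log2 fold change was -2.73 with an adjusted p of 0.999 in edgeR, and without HuR hKO mouse 3 it was -0.51, so its value turned on single libraries.

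Acsl4, Acsm5 and Acss3 were among the lipid genes the study drew as a heat map from these same libraries. Their directions here are therefore not independent evidence on that list.

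The order of levels was read per length. On the scale of CPM per kb of merged exons, averaged over the 4 libraries, Acsm1 led at 135 ± 6.27 (SD, n = 4), followed by Acsl1 at 111 ± 15.5. The ranges of these neighbours overlapped. Acsl5 came next at 60.9 ± 9.02, then Acsm5 at 37.5 ± 3.81 and Acsm3 at 23.6 ± 1.31. No ranges overlapped along that stretch. Acss2 (9.53 ± 1.46) and Acsl4 (8.32 ± 1.10) overlapped with each other, and Acsl3 (5.0 ± 0.735), Acss3 (0.860 ± 0.133) and Acss1 (0.168 ± 0.113) followed without overlap. With the length of the longest transcript in place of merged exons, Acsl1 (206 ± 28.7) led Acsm1 (142 ± 6.56) with no overlap, and the order of the other 8 was the same. The merged exons of Acsl1 and Acss2 cover 10483 and 10163 bases against longest transcripts of 5676 and 3609 bases, so these genes moved most.

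By family, the 3 Acsm genes made up 53.0% and 46.8% of the group's summed CPM per kb of merged exons in the controls and 51.2% and 49.6% in the labelled knockouts. The 4 Acsl genes made up 44.5% and 50.3% in the controls and 46.1% and 47.8% in the labelled knockouts. The labelled knockouts lay between the controls in both families, and also in the Acss share, which was 2.52% to 2.96% over the 4 livers. With the longest transcript as length, the Acsl share rose to a mean of 53.2% and the Acsm share dropped to 41.6%, so which family was larger depended on the length used.

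**Figure D3:**
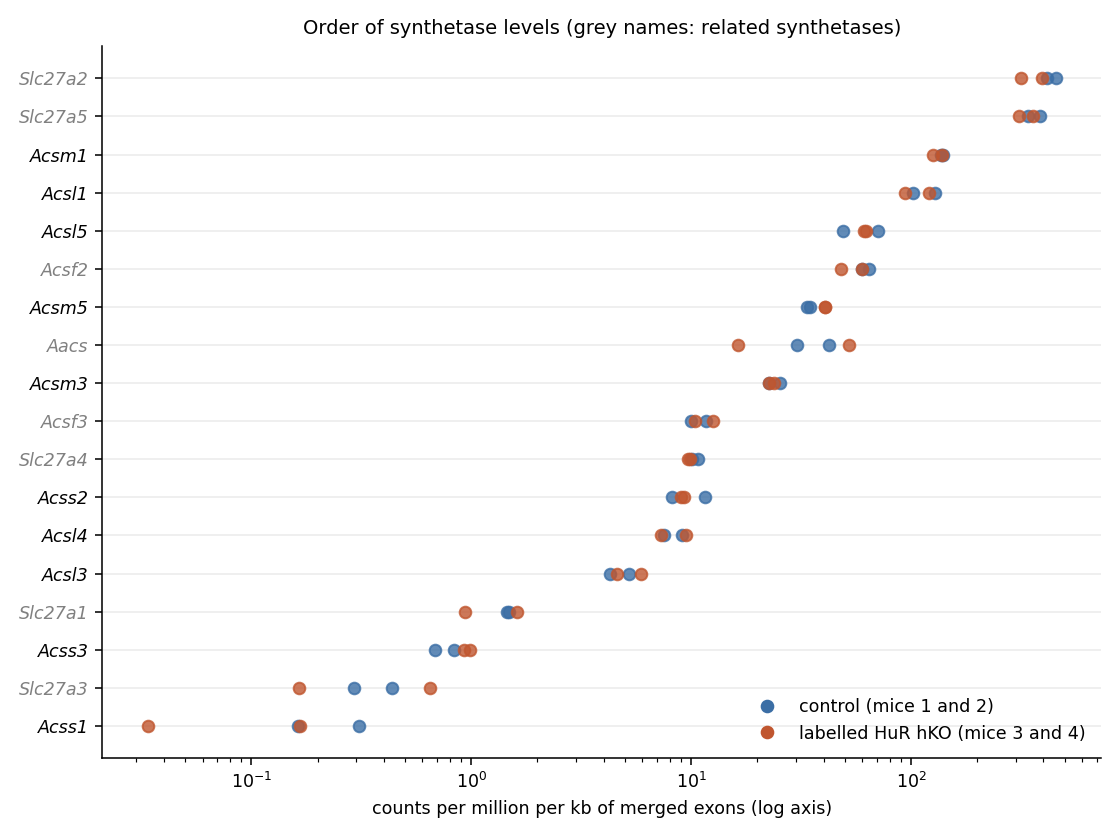
Level of each synthetase in CPM per kb of merged exons (horizontal log axis), with 1 point per liver in blue for control and orange for labelled HuR hKO, for the 10 genes (black names) and the 8 tested related synthetases (grey names), ordered by mean. Acsm1 and Acsl1 sit near 135 and 111, below Slc27a2 and Slc27a5, and Acss1 lies at the bottom with 0.168.

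The Acsm genes are neighbours. On chromosome 7, plus strand, GENCODE places Acsm5 (119519463 to 119545551), Acsm2, Acsm1 (119607026 to 119662515), Acsm4 and Acsm3 (119760923 to 119787513) in that order. Genes with many and with few counts alternated: Acsm5, Acsm1 and Acsm3 had 1499 to 5664 counts in every library. Acsm2, which lies between Acsm5 and Acsm1, had 11 and 4 counts in the controls and 6 and 5 in the labelled knockouts. Acsm4, known from the olfactory mucosa, had 0 counts in all 4 libraries, which allows at most 0.226 CPM in the shallowest (3 counts, counting error only). Between Acsm4 and Acsm3 lies Thumpd1, on the opposite strand, with 230 to 391 counts. The longest run of identical bases between transcripts of Acsm1 and Acsm2 was 26, as it was between Acsm3 and Acsm4.

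Some counts could be shared with genes whose annotated spans overlap. The strand setting was not given, which matters for those on the opposite strand. Gss, which overlaps the annotated span of Acss2 on the opposite strand, had 1025 to 1812 counts a library, 92.4% as many as Acss2 in total. Zdhhc6 overlaps Acsl5 on the opposite strand with 21.3% as many counts, and Utp14b lies on the same strand as Acsl3 with 21.4% as many. Pdilt and Eri2, on the opposite strand to Acsm5 and Acsm3, had 3.75% and 6.85% as many. Acsl1, Acsl4 and Acsm1 overlapped no other gene. These percentages compare whole counts of genes with overlapping spans and do not measure shared reads. How many reads were shared for Acss2, Acsl3 and Acsl5 was not tested.

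Of 15 related acyl-CoA synthetases, 14 were in the table and 8 were tested. None passed an unadjusted p of 0.05, 2 had fitted values above 0 and 6 below, and the median log2 fold change was -0.11 beside 0.00 for all genes. Slc27a2, a very long-chain synthetase and fatty acid transporter, had 1564 and 1708 CPM in the controls and 1184 and 1477 CPM in the labelled knockouts (log2 fold change -0.30, SE 0.17, adjusted p = 0.738, edgeR). Both labelled knockouts lay below both controls, as they did for Slc27a4 (44.3 and 47.5 against 42.6 and 43.8 CPM). These were 2 of the 8 tested, where 18.8% of all genes did not overlap in this direction. In the opposite direction it was 0 of the 8, against 19.3% of all genes. Slc27a5, the bile acid-CoA ligase, overlapped between groups at 832 and 945 against 752 and 873 CPM. Per kb of merged exons Slc27a2 (395 ± 58.9, SD, n = 4) and Slc27a5 (349 ± 33.0) were above every Acsl, Acsm and Acss gene in every library.

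The other tested relatives overlapped between groups. Aacs, which activates acetoacetate for lipid synthesis, differed widely within the labelled knockouts: 163.5 and 117 CPM in the controls and 201 and 63.1 CPM in the labelled knockouts. Its interval, 0.468 to 1.895 in fold, was therefore too wide to bound a change at 1.8-fold. Acsf2 had a log2 fold change of -0.20, Acsf3, the malonyl-CoA synthetase, one of 0.09, Slc27a1 one of -0.19 and Slc27a3 one of 0.11. Slc27a3 rested on 8 to 24 counts a library. Acsbg2, like Acsm4, had 0 counts in every library.

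The steps around acyl-CoA formation were read from lists. Of 13 genes that carry acetyl-CoA on to fatty acids and sterols, 9 had fitted values above 0 and 4 below, with a median log2 fold change of 0.47. An unadjusted p under 0.05 was reached by 7 of them, all higher in the labelled knockouts, beside 7.43% of all genes. Whether this list differed from the synthetases was not tested. It was chosen with earlier results of these data known. Acaca, Fasn and Elovl6 were among the lipid genes in the study's heat map from these same libraries. The list is therefore not independent evidence. Its summed CPM overlapped between groups, at 14805 and 27241 in the controls and 23589 and 13740 in the labelled knockouts, the lowest value being that of HuR hKO mouse 4. Such a sum is carried by the most abundant genes and does not give the direction of single genes. Both labelled knockouts lay above both controls for 8 of the 13 genes, beside 19.3% of all genes. They lay below both for 0 of the 13, beside 18.8%. Acly, the ATP citrate lyase, was at 153 and 155 CPM in the controls and 264 and 276.9 CPM in the labelled knockouts (log2 fold change 0.81, SE 0.13). Fasn, fatty acid synthase, was at 388 and 353 against 707 and 627 CPM (0.85, SE 0.15), and Mvd, of the mevalonate pathway, at 4.21 and 2.46 against 6.21 and 7.91 CPM (1.08, SE 0.30). None of the 13 passed an adjusted p of 0.05 in the quasi-likelihood test with the filter and scaling used here (Acly 0.103, Fasn 0.137, Mvd 0.435). Acly and Fasn did so with DESeq2 (adjusted p = 1.39e-04 and 7.04e-05), in edgeR's exact test and without the filter. Neither did so with the other scalings or with at least 10 counts in every library. They also did not with limma-voom (adjusted p = 0.102 and 0.117) or robust quasi-likelihood fitting (0.082 and 0.105).

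Acly and Acss2 both supply cytosolic acetyl-CoA, from citrate and from acetate. The log2 ratio of Acly to Acss2 counts was 0.88 and 0.40 in the controls and 1.52 and 1.55 in the labelled knockouts. The ratio was higher in both labelled knockouts by a mean of 0.90, with SDs of 0.34 in the controls and 0.02 in the labelled knockouts. The pair was picked after the values were seen, so no test is given.

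The remaining lists showed few genes past an unadjusted p of 0.05, beside 7.43% of all genes, and none past an adjusted one. Acyl-CoA thioesterases hydrolyse acyl-CoA to the free acid, and their list also held the acyltransferase Baat. Of 13 genes tested from this list, 9 had fitted values above 0 and 4 below, with a median of 0.12. Acot8, a peroxisomal thioesterase, was the only one with an unadjusted p under 0.05, at 18.8 and 23.6 against 28.2 and 33.1 CPM (log2 fold change 0.53, SE 0.16, adjusted p = 0.501). Of 6 carnitine transfer genes, 3 had fitted values above 0 and 3 below. The only one with an unadjusted p under 0.05 was Crot, the peroxisomal carnitine octanoyltransferase. It was at 381 and 322 CPM in the controls and 270.1 and 269 CPM in the labelled knockouts (log2 fold change -0.38, SE 0.14, adjusted p = 0.591). Of 20 glycerolipid and sterol acyltransferases, 13 had fitted values above 0 and 7 below, with a median of 0.14. The only one with an unadjusted p under 0.05 was Gpam, which starts triglyceride synthesis from acyl-CoA. It was at 76.5 and 62.1 against 85.4 and 91.7 CPM (0.35, SE 0.14, adjusted p = 0.633). Of 13 regulators of lipid metabolism, 9 had fitted values above 0 and 4 below, with a median of 0.13. The only one with an unadjusted p under 0.05 was Ppara, the nuclear receptor that senses fatty acids. It was at 66.7 and 64.7 against 74.5 and 105.6 CPM (0.46, SE 0.17, adjusted p = 0.603). None of 5 acyl-CoA binding proteins and neither of the glycine conjugation genes passed an unadjusted p of 0.05.

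**Figure D4:**
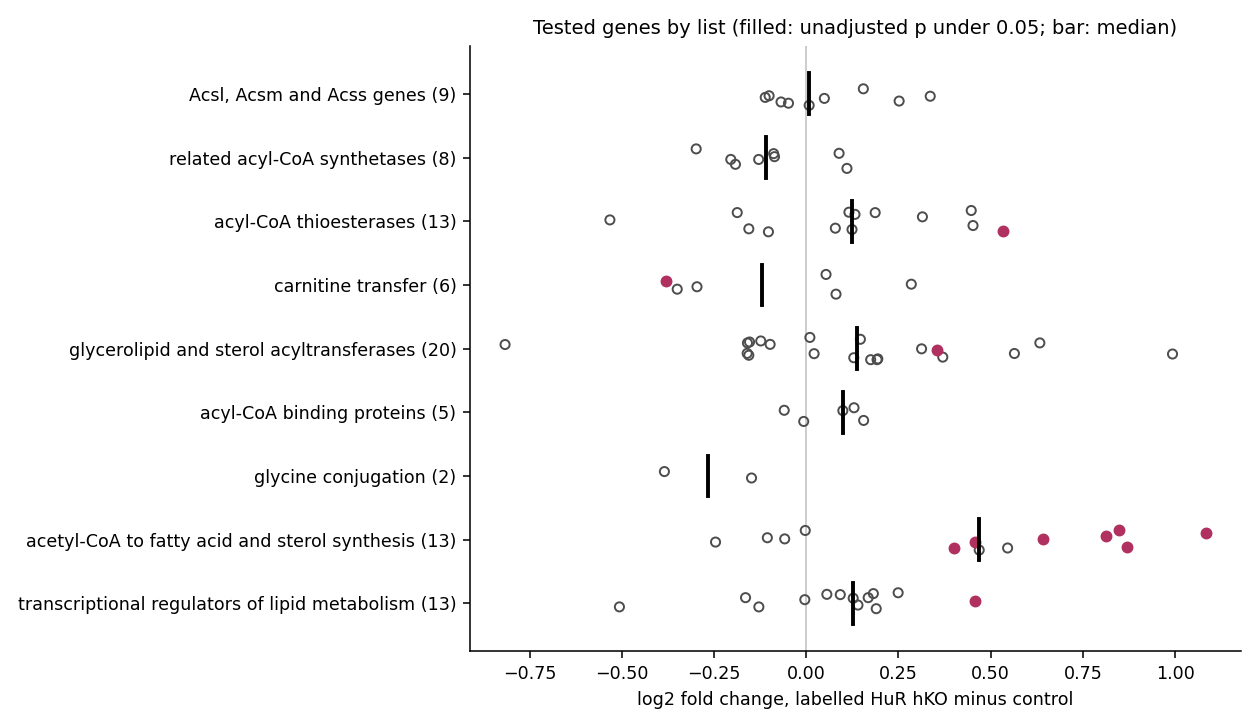
Log2 fold change (horizontal axis, libraries labelled HuR hKO minus control) of every tested gene, by list, with the number of genes tested in parentheses; filled points have an unadjusted p under 0.05 in edgeR, bars mark medians and vertical jitter has no meaning. The Acsl, Acsm and Acss genes centre on a median of 0.01 with no filled point, while the acetyl-CoA to fatty acid and sterol list has 7 filled points and a median of 0.47. All lists were chosen with earlier results of these data known.

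Markers of other cells were set beside these values. Adipocyte markers summed to 8.96 and 11.2 CPM in the controls and 8.23 and 12.8 CPM in the labelled knockouts, and cholangiocyte markers to 52.5 and 27.6 against 39.6 and 49.8 CPM. Both overlapped between groups. The 8 Kupffer cell and macrophage markers summed to 139 and 145.5 against 167 and 154 CPM, and the 6 endothelial markers to 179 and 158 against 206 and 186 CPM, higher in the labelled knockouts. The 6 stellate cell markers, at 179.6 and 182 against 195 and 247 CPM, were also higher, whereas T, NK and B cell markers summed to 3.31 and 8.14 against 7.95 and 7.06 CPM and overlapped. Named by their unadjusted p were the macrophage marker Trem2 (log2 fold change 1.82) and the stellate cell markers Col3a1 (0.59) and Col1a1 (0.63). Trem2 rested on 4 and 2 counts in the controls and 12 and 15 in the labelled knockouts. It passed the filter only through the labelled knockouts, so a value above 0 was favoured beforehand. Leaving out 1 library gave 0.30 to 0.81 for Col3a1 and 0.26 to 0.90 for Col1a1, both lowest without HuR hKO mouse 4. Of the macrophage markers 6 had fitted values above 0 and 2 below, and of the stellate cell markers 5 above and 1 below. From the cholangiocyte list Spp1 was named (0.51), whereas that list had 2 of its 4 tested genes above 0 and 2 below, with a median of -0.23. No marker of these 6 lists was at 0 in all 4 libraries. Female-biased liver genes summed to 8.88 and 11.7 CPM in the controls and 49.7 and 43.8 CPM in the labelled knockouts (Cyp2a4 4.81, Cyp2b13 2.40 and Cyp2b9 1.52 in log2 fold change). Only these 3 of the 9 genes passed the filter. The other 6 together summed to 0.903 and 1.27 CPM in the controls and 0.907 and 0.690 CPM in the labelled knockouts. Cyp2a4 held 11 and 7 counts in the controls and 403 and 200 in the labelled knockouts. Cyp2b13 held 9 and 14 against 56 and 98. Cyp2a4 and Cyp2b13 passed the filter only through the labelled knockouts, so values above 0 were favoured beforehand. All 4 mice were labelled male, while the methods of the study state that its animal work used both sexes. Of 8 male-biased genes 6 had fitted values below 0, among them C6 (-0.99), Slco1a1 (-0.66) and Hsd3b5 (-0.50), while their summed CPM overlapped between groups. The part of any of these in the synthetase values was not tested.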

How the data were processed

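Total liver RNA of 4 mice was sequenced. The deposited table held whole-number counts per Ensembl gene for the 4 libraries; the authors made it with RSEM and GRCm38 according to the submitters' processing notes, and the aligner, versions and strand setting are not given in the sources used here. Gene names, positions and lengths came from GENCODE vM21 and promoters from RefSeq (GRCm38.p6). The libraries held 13032095 to 19715577 counts, of which at most 0.0721% lay on rows with no gene symbol. Genes passing filterByExpr (13001) were tested with edgeR 4.0.16 (TMM factors, quasi-likelihood, R 4.3.3), with Benjamini-Hochberg adjustment over all of them; 95% intervals used its degrees of freedom. CPM used TMM-scaled library sizes. Scripts were tested on simulated data. Counts of every pair of libraries differed by more than sampling noise. No exact permutation test was used, since 2 mice against 2 allow no two-sided p below 0.333. The synthetases and the gene lists were chosen with earlier results of these data known. Named genes were the 10 synthetases, Elavl1, every tested related synthetase, up to 3 genes a list with an unadjusted p under 0.05, and the 3 genes closest to the synthetase with the smallest p. Alternatives were other scalings (DESeq2 1.42.0 size factors, upper quartile, none), no filter, at least 10 counts in every library, DESeq2, edgeR's exact test, limma-voom (limma 3.58.1), robust fitting, and leaving out each library.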

Additional observations from a re-analysis of the deposited data

How the results depend on the processing

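No synthetase passed an adjusted p of 0.05 under any of the 13 alternatives. Of 117 fitted values of the 9 genes, 102 had the sign of the reported value and 15 the opposite one. Without library scaling Acsl1 stood at 0.24, Acsm1 at 0.25, Acsm3 at 0.27 and Acss2 at 0.20, when the median of all genes was 0.31 by the lack of scaling itself. Acsl4 was at -0.0019 with upper quartile factors, -0.0037 with no filter and -0.00092 with at least 10 counts in every library. Leaving out 1 library gave -0.29 to 0.07 for Acsl1, -0.05 to 0.31 for Acsl3, -0.21 to 0.19 for Acsl4, -0.21 to 0.34 for Acsl5, -0.12 to 0.02 for Acsm3 and -0.35 to 0.16 for Acss2; Acsm5 (0.23 to 0.27) and Acss3 (0.20 to 0.47) stayed above 0. The number of synthetases with an unadjusted p under 0.05 was 1 without library scaling (Acss3) and 0 to 1 when 1 library was left out (Acss1, without HuR hKO mouse 4). Their median was 0.30 without scaling and -0.07 to 0.12 with 1 library left out. The count of all genes past an adjusted p of 0.05 moved far more: from 3 to 155 without scaling, 161 with no filter, 85 with DESeq2, 120 with the exact test, 8 with robust fitting and 0 to 73 with 1 library left out (0 without HuR hKO mouse 3, 73 without control mouse 2, 43 without control mouse 1, 7 without HuR hKO mouse 4); the cause was not tested. With the longest transcript as length the family shares were 53.2% Acsl, 41.6% Acsm and 5.21% Acss against 47.2%, 50.1% and 2.68%; TPM gave the same shares as CPM per kb by construction. No paired analysis was possible because the mice of the 2 groups share no replicate number. With 2 mice a group, the intervals of the 9 genes reached as far as 0.691-fold and 1.79-fold, so differences inside those bounds could not be told from the spread.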
